A study of Mus musculus with 3 samples.

Results

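Genes that cut, protect and cross-link the extracellular matrix were examined in mouse cells of small cell lung cancer (SCLC) after knock-out of Kdm1a, the gene of the histone demethylase LSD1. They were taken by symbol: every row of the deposited gene table named as a matrix metalloproteinase (Mmp), a tissue inhibitor of metalloproteinases (Timp1 to Timp4), a numbered Adamts protease, Lox or Loxl1 to Loxl4. This gave 51 of 24523 genes, 23 Mmp, 4 Timp, 19 Adamts and 5 lysyl oxidase genes. The knock-out libraries came from cells of line 3 given a lentiviral CRISPR vector with guide Kdm1a-sg1 (1 library) or Kdm1a-sg2 (1 library), and the control library from cells given Lenti-Crispr-V2, with no guide named (1 library). All 3 cultures were selected with puromycin for at least a week, and the labels name 1 cell line and no clones. The count totals were 44667861 with sg1, 51066078 with sg2 and 43424212 in the control.

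The matrix metalloproteinases are zinc proteases, made as inactive precursors, that cleave collagens, gelatins and other matrix and cell-surface proteins; some are secreted and some stay bound to the membrane. TIMPs bind their active sites and block them. ADAMTS proteases are secreted relatives with thrombospondin repeats that cleave proteoglycans, trim procollagens or process microfibril proteins, and the lysyl oxidases are copper enzymes that oxidise lysines of collagen and elastin so that the fibres cross-link. In carcinomas much of this set is typically made by stromal cells and by tumour cells with mesenchymal features.

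Kdm1a, the targeted gene, had 3950 counts with sg1 and 5716 with sg2, against 11468 in the control (log2 fold change -1.40, SE 0.404; edgeR quasi-likelihood test, adjusted p = 0.0537). Kdm1a mRNA was lower with each guide, but the difference missed the threshold, and the protein was not measured. The control was sequenced once and each guide once, so means ± SD are over the 2 guides and control values have no SD. The p-values rest on the spread between the guides, moderated over all genes, and take the single control to vary as the guides do. Of 10 neuroendocrine markers of SCLC, 9 lay below the control with both guides, and the lowest level was that of Dll3, with 1.88 CPM (counts scaled to effective library size) with sg1 and 3.598 CPM with sg2, against 10.8 CPM in the control. Insm1, a neuroendocrine transcription factor, had 424 CPM with sg1 and 291 CPM with sg2, against 756 CPM in the control. By the edgeR test, 1 of the 10 markers passed as higher, the one above the control with both guides, and 2 passed as lower.

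Mmp3 and Mmp10, which encode stromelysins, Timp3, which encodes an inhibitor, and 4 lysyl oxidase genes rose and gave few or no reads in the control. In bulk RNA, fewer cells of a type and less RNA per cell cannot be told apart. Of the 51 genes, 38 had enough reads to be tested; 13 rose, 1 fell and 24 did not pass, at an adjusted p under 0.05 over all genes tested. Of all 15936 genes tested, 1279 passed, which is 8.03%, with 6.33% higher and 1.70% lower. Higher genes made up 78.8% of these calls, and 89.2% in a limma fit of log2(RPKM + 0.1). The median log2 fold change was 1.97 over the 38 genes and 0.06 over all genes tested; with genes absent from the control set at the limit of 3 counts, the median of the 38 was 1.77. Genes absent from the control could enter the test only through the guides, so these counts describe the tested genes and not the whole family. With sg1 6 of the 51 genes had no count and with sg2 7, against 19 in the control, and 30 with sg1 and 29 with sg2 reached 1 CPM, against 16 in the control.

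**Figure D1:**
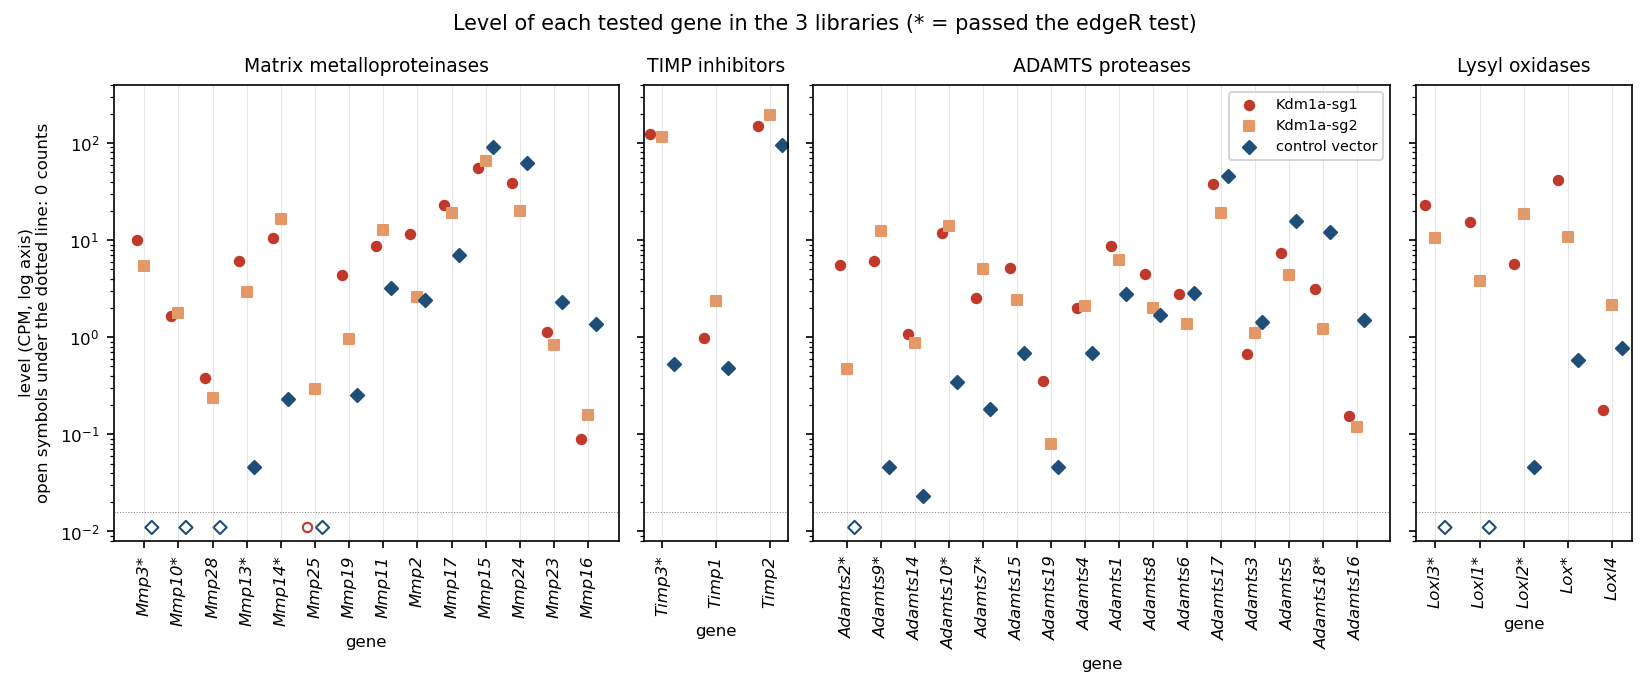
Level of each of the 38 tested genes in CPM (log axis), with Kdm1a-sg1, Kdm1a-sg2 and the control vector as 1 point each, ordered within each family by fold change. Open symbols under the dotted line are libraries with 0 counts, and asterisks mark the 14 genes that passed the edgeR test. For Timp3 the guides stood at 124 and 115 CPM and the control at 0.530 CPM, whereas for Mmp15 the guides stood at 55.2 and 65.4 CPM and the control at 89.9 CPM.

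Mouse chromosome 9 carries a cluster of 10 Mmp genes, and 3 of them accounted for the changes there. On GRCm38, the assembly of mm10, the cluster spans 427 kb, chr9:7272514-7699585, in the order Mmp13, Mmp12, Mmp1b, Mmp3, Mmp1a, Mmp10, Mmp8, Mmp27, Mmp20, Mmp7, with no other gene of the deposited table between them. The promoters of these genes are shown because genes side by side in the cluster had unlike values although they share promoter motifs. The bases are those from 110 to 1 before the gene start, from RefSeq on GRCm38.p6, written 5′ to 3′ on the strand of the gene. Capitals mark an AP-1 motif and a TATA motif, each searched for on both strands. The AP-1 motif was spelled TGAGTCA, and in Mmp13 it lies on the reverse strand. The letters searched for as the TATA motif were TATAAA. No AP-1 motif overlapped a TATA motif.
Mmp3: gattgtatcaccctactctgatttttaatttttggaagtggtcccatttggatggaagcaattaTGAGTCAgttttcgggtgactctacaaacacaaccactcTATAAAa
Mmp10: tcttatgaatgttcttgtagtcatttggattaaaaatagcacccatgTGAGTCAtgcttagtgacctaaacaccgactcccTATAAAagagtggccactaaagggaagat
Mmp13: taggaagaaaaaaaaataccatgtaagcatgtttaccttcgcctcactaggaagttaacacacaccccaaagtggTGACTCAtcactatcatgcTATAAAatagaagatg
Mmp1a: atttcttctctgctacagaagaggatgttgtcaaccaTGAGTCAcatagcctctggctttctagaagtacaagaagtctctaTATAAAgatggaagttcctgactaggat
Mmp1b: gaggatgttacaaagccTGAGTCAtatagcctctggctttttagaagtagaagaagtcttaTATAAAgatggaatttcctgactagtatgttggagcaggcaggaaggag
Mmp7: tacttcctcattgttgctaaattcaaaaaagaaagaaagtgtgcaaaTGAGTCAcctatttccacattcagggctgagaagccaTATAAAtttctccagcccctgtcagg

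The windows lie at chr9:7445712-7445821 (plus strand) for Mmp3, chr9:7502232-7502341 (plus) for Mmp10, chr9:7272404-7272513 (plus) for Mmp13, chr9:7464031-7464140 (plus) for Mmp1a, chr9:7388027-7388136 (minus) for Mmp1b and chr9:7691980-7692089 (plus) for Mmp7. AP-1 is the dimer of Fos and Jun proteins known to act at several Mmp promoters. Of the 33 genes of the set with a RefSeq promoter, given as 250 bases before to 50 after the start, 7 held the AP-1 motif, all in this cluster: the 6 shown and Mmp12 at 1 of its 2 starts. Of all 32851 promoters of that length, 5.20% held it. The motif stood in the promoters of the 3 cluster genes that rose and in those of 4 cluster genes with 0 to 4 counts in each library. Of the 13 genes that rose, 7 had a RefSeq promoter to search. Lox, Loxl1, Loxl2, Loxl3, Adamts7 and Adamts10 had none, so the motif was not searched for in them. The TATA motif was found in 11 of the 33 genes, against 13.6% of all promoters, and the TEAD motif GGAATG, on either strand, in 2, against 14.7%. A match is a description of the letters and was not tested for binding.

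Mmp3, stromelysin-1, which cleaves proteoglycans and fibronectin and activates other pro-MMPs (NM_010809; chr9:7445822-7455975), had 450 counts with sg1 and 273 with sg2, against 0 in the control. Its levels were 9.97 CPM with sg1 and 5.40 CPM with sg2. Both guide libraries lay far above the control, and the knock-out averaged 7.68 ± 3.23 CPM (SD, n = 2), at least 111-fold more than the 0.0692 CPM that 3 control counts would give (edgeR adjusted p = 0.00044).
Mmp10, stromelysin-2 (NM_019471; chr9:7502342-7510242), had 75 counts with sg1 and 90 with sg2, against 0 in the control. The guides were close to each other, at 1.66 and 1.78 CPM, at least 24.9-fold above the same limit as a mean (edgeR adjusted p = 0.0114). Mmp13, the main interstitial collagenase of the mouse (NM_008607; chr9:7272514-7283333), had 277 counts with sg1 and 149 with sg2, against 2 in the control. The pooled ratio of the guides to the control was 96.5 (95% exact counting interval 26.6 to 799; edgeR adjusted p = 0.00431), and the sg1 level was 2.08 times the sg2 level (1.70 to 2.56).

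The other 7 genes of the cluster stayed at or near 0. Mmp1a, Mmp20, which encodes the enamel protease enamelysin, and Mmp7, matrilysin, had 0 counts in all 3 libraries. Mmp1b had 4 counts with sg1, Mmp8, the neutrophil collagenase, 2 with sg2, Mmp27 2 with sg1, and Mmp12, the macrophage elastase, 2 with each guide, with 0 in the other libraries. The limit for a count of 0, set at 3 counts, was 0.0665 CPM with sg1, 0.0593 CPM with sg2 and 0.0692 CPM in the control. Next to the cluster, Dcun1d5 and Tmem123 on its sides did not pass the test (log2 fold changes 0.53 and 0.06; edgeR adjusted p = 0.629 and 0.975). Yap1, a Hippo pathway coactivator and the fourth gene beyond Mmp7, had 2825 counts with sg1 and 4890 with sg2, against 489 in the control, and rose (log2 2.82, SE 0.525; edgeR adjusted p = 0.0043).

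**Figure D2:**
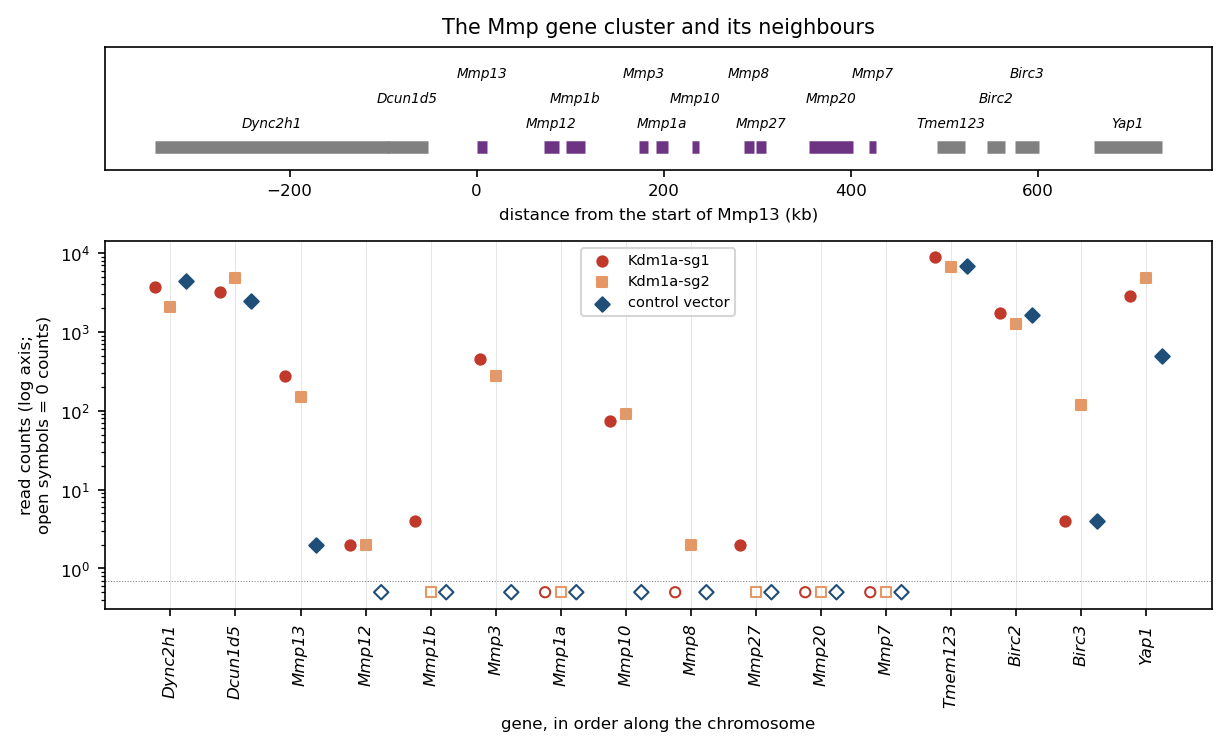
The Mmp cluster with its neighbours (upper panel: gene spans by distance from the start of Mmp13 in kb, Mmp genes purple and others grey; lower panel: read counts on a log axis, 1 point per library, open symbols for 0 counts). Mmp13, Mmp3 and Mmp10 stand between 75 and 450 counts with both guides and at 2, 0 and 0 in the control, while the 7 Mmp genes between and beyond them have 4 counts or fewer.

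Outside the cluster, the secreted MMP genes were mixed. Mmp11, stromelysin-3, had 8.62 CPM with sg1 and 12.9 CPM with sg2, against 3.18 CPM in the control, and Mmp19 had 4.39 and 0.949 CPM, against 0.254 CPM. Both lay above the control with both guides, but neither passed (log2 1.75 and 3.38; edgeR adjusted p = 0.138 and 0.134). Mmp2, gelatinase A, had 527 counts with sg1 and 131 with sg2, against 104 in the control. Its sg1 library alone stood apart, 11.7 CPM against 2.59 CPM with sg2 and 2.40 CPM in the control, and the gene did not pass (edgeR adjusted p = 0.398). Mmp9, gelatinase B, had 0 counts in all 3 libraries. Mmp28 had 17 and 12 counts with the guides and 0 in the control (edgeR adjusted p = 0.237), and Mmp21 had 5 and 3 counts, against 8.

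Among the membrane-bound MMPs, Mmp14 changed and the abundant genes did not pass. Mmp14, MT1-MMP, a collagenase of the cell surface that activates pro-MMP2 together with TIMP2 (NM_008608; chr14:54431598-54442456), had 477 counts with sg1 and 829 with sg2, against 10 in the control. It rose 58.5-fold, to 13.5 ± 4.12 CPM against 0.230 CPM in the control (log2 5.85, SE 0.825; edgeR adjusted p = 0.000634). Both guides lay well above the control, with ratios of 45.8 for sg1 and 71.1 for sg2.
Mmp15, MT2-MMP, was the most abundant of the Mmp genes per length in each library. Its deposited RPKM (reads per gene length and library size) was 12.9 with sg1 and 15.0 with sg2, against 20.8 in the control. Mmp24, MT5-MMP, which is known mainly from neurons, had 8.98 and 4.58 RPKM, against 14.3 RPKM. Both genes were lower with each guide, and neither passed (log2 -0.58 and -1.08; edgeR adjusted p = 0.562 and 0.244). Mmp17, a GPI-anchored MMP, had 22.7 and 18.9 CPM, against 7.08 CPM in the control (log2 1.56, adjusted p = 0.117). Mmp16 had 4 and 8 counts, against 59 (log2 -3.43, adjusted p = 0.134), and Mmp23 51 and 42, against 101 (log2 -1.25, adjusted p = 0.557). Reads of Mmp23 are uncertain because its span overlaps that of Mib2, and the strand setting of the counting is not given in the sources used here. Mmp25, known from leukocytes, had 0 and 15 counts, against 0 in the control.

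The make-up of the Mmp message per length therefore differed. With sg1, Mmp15 and Mmp24 held 25.1% and 17.5% of the summed Mmp RPKM, and with sg2 Mmp15 held 34.3%, followed by Mmp14 with 14.2%. In the control, Mmp15 and Mmp24 held 50.2% and 34.4%. The sum over the 16 secreted Mmp genes was 18.1 RPKM with sg1 and 11.9 with sg2, against 2.37 in the control, and that over the 7 membrane-bound ones 33.3 and 31.7, against 39.1. These sums are descriptions of 1 library each.

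**Figure D3:**
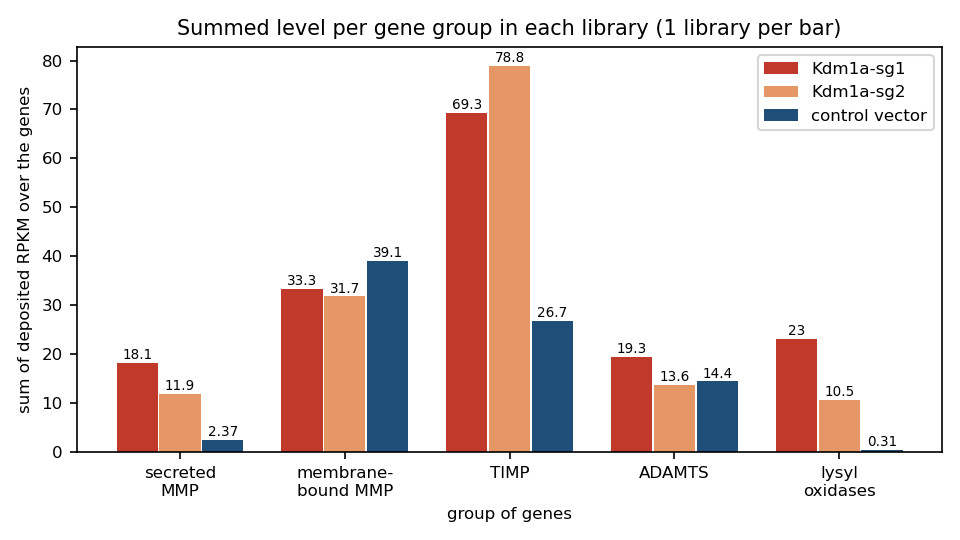
Sum of the deposited RPKM over the genes of each group, 1 bar per library (Kdm1a-sg1, Kdm1a-sg2, control vector). The lysyl oxidase bars are 23.0 and 10.5 with the guides and 0.310 in the control, and the TIMP bars 69.3 and 78.8, against 26.7.

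Of the 4 inhibitor genes, Timp3 rose. TIMP3 differs from the other inhibitors in binding to the matrix and in blocking ADAM and ADAMTS proteases as well as MMPs. Timp3 (NM_011595; chr10:86300412-86349505) had 5577 counts with sg1 and 5823 with sg2, against 23 in the control. The guides lay close together, and the gene rose 225-fold, to 119 ± 5.95 CPM against 0.530 CPM in the control (log2 7.81, SE 0.657; edgeR adjusted p = 2.55e-05). It passed under all 9 other analyses with a test, with adjusted p up to 0.0371. Timp3 lies within the span of Syn3, which encodes a synapsin of synaptic vesicles. Syn3 had 425 counts with sg1 and 368 with sg2, against 562 in the control, and did not pass (edgeR adjusted p = 0.638). Overlaps given here are of whole gene spans, and whether exons overlap was not examined. Where exons do overlap, reads of Timp3 and Syn3 cannot be told apart without the strand setting. The same holds for Timp1 and Syn1, Timp2 and Cep295nl, Timp4 and Syn2, and Loxl3 and Htra2.

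Timp2, which both inhibits MMPs and takes part in MMP2 activation, was the most abundant of all 51 genes per length in each library, with 41.7 RPKM with sg1, 52.1 with sg2 and 26.02 in the control. It was higher with both guides without passing (log2 0.85, SE 0.435; edgeR adjusted p = 0.342). Timp1 had 44 and 120 counts, against 21 in the control (log2 1.78, adjusted p = 0.46). Timp1 lies within Syn1, whose counts were lower in the knock-out (679 and 681, against 2806; edgeR adjusted p = 0.0065). Timp4, which lies within Syn2, had 4 and 3 counts, against 0. Timp2 and Timp3 held 60.2% and 38.2% of the summed Timp RPKM with sg1 and 66.1% and 30.6% with sg2, whereas Timp2 alone held 97.6% in the control.

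Of 16 tested Adamts genes, 4 rose and 1 fell, against 6.33% higher and 1.70% lower over all genes tested. The genes that passed belong to different functional groups. Among the proteoglycanases, which cleave versican and aggrecan, Adamts9 (NM_175314; chr6:92772699-92944450) had 277 counts with sg1 and 630 with sg2, against 2 in the control. The pooled ratio was 205 (95% counting interval 56.7 to 1699; edgeR adjusted p = 0.000711). The others were not called. Adamts1, Adamts4, Adamts15 and Adamts8 lay above the control with both guides (log2 1.41, 1.56, 2.44 and 0.92; edgeR adjusted p = 0.301, 0.463, 0.158 and 0.68). Adamts5, a main aggrecanase of mouse cartilage, lay below it, with 334 and 219 counts, against 685 (log2 -1.43, adjusted p = 0.176). Reads of Adamts4 are uncertain because the strand setting is not given. Adamts20 had 3 and 4 counts, against 0.

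Of the procollagen N-proteinases, which remove the amino-terminal propeptides of fibrillar collagens, Adamts2 (NM_001277305; chr11:50602085-50807573) had 253 counts with sg1 and 24 with sg2, against 0 in the control. The guides differed by a ratio of 11.8 (95% counting interval 7.76 to 18.8), so that the mean of at least 43.9-fold above the limit (edgeR adjusted p = 0.0215) rests mostly on sg1, where the log2 fold change was 7.03, against 3.59 with sg2. Adamts14 had 49 and 44 counts, against 1 in the control, a pooled ratio of 42.1 (7.38 to 1682), and did not pass (edgeR adjusted p = 0.0904). Adamts3 had 30 and 56 counts, against 62 (adjusted p = 0.813). The 3 enzymes of this group thus had unlike values.

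Adamts10, which acts in fibrillin microfibrils (NM_001329143; chr17:33523646-33553782), had 530 counts with sg1 and 699 with sg2, against 15 in the control. The guides were close, and the gene rose 37.0-fold, to 12.8 ± 1.47 CPM against 0.346 CPM (log2 5.20, SE 0.773; edgeR adjusted p = 0.000878). Adamts7, known to cleave cartilage oligomeric matrix protein (NM_001003911; chr9:90162904-90200102), had 115 and 252 counts, against 8, and rose 20.4-fold (log2 4.33, SE 1.07; edgeR adjusted p = 0.024). Adamts18 (NM_172466; chr8:113697123-113849343) was the one gene of the 51 that fell, with 142 counts with sg1 and 61 with sg2, against 523 in the control. It was 5.54-fold lower (2.18 ± 1.37 CPM, against 12.1 CPM; log2 -2.47, SE 0.688; edgeR adjusted p = 0.0457), close to the threshold.

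The most abundant Adamts gene of the control did not pass. Adamts17, related to Adamts19 and linked to connective tissue disease in humans, had 38.1 CPM with sg1 and 19.0 with sg2, against 45.2 in the control (log2 -0.66, edgeR adjusted p = 0.58). Adamts6 had 125 and 70 counts, against 123 (adjusted p = 0.858), and Adamts16 7 and 6, against 65 (log2 -3.43, adjusted p = 0.117). Adamts19 had 16 and 4 counts, against 2 (adjusted p = 0.693). Adamts12 had 7 and 0 and Adamts13, the protease of von Willebrand factor, 12 and 2, both against 0. The calls of Adamts2, Adamts7 and Adamts18 were lost with limma-voom, in both limma fits of RPKM and when the trend of fold change on gene length was removed, with adjusted p up to 0.547, 0.257 and 0.191; Adamts2 and Adamts18 also lost theirs when a mean of at least 50 counts was required, and Adamts18 with upper-quartile factors. With limma-voom, Mmp10, Mmp13, Adamts9, Lox, Loxl1 and Loxl2 did not pass either, and in the limma fit of log2(RPKM + 1) Timp3 alone of the 14 genes passed.

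Of the 5 lysyl oxidase genes, 4 rose and the fifth, Loxl4, did not pass, against 6.33% higher and 1.70% lower over all genes tested. Loxl1 and Loxl3, absent from the control, could enter the test only through the guides. Lox (NM_001286181; chromosome 18), the founding enzyme for cross-links of collagen and elastin, had 1883 counts with sg1 and 548 with sg2, against 25 in the control. It rose 45.6-fold, to 26.3 ± 21.8 CPM against 0.576 CPM (log2 5.50, SE 0.933; edgeR adjusted p = 0.00225). The sg1 level was 3.85 times the sg2 level (95% counting interval 3.50 to 4.24), with ratios to the control of 72.3 and 18.8.
Loxl1, needed for elastic fibres in the mouse (NM_010729; chr9:58287723-58313212), had 697 counts with sg1 and 190 with sg2, against 0 in the control. The knock-out averaged 9.60 ± 8.26 CPM, at least 139-fold over that limit (edgeR adjusted p = 0.000958). Loxl3 (NM_013586; chr6:83034205-83052566), another matrix lysyl oxidase, had 1030 and 526 counts, against 0, and averaged 16.6 ± 8.78 CPM with the guides, at least 240.1-fold over it (edgeR adjusted p = 0.000143). The end of Loxl3 overlaps Htra2, which had 782 and 1281 counts, against 434, and did not pass (adjusted p = 0.314).

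Loxl2, which is linked to invasion in carcinomas (NM_033325; chr14:69608692-69695834), had 257 counts with sg1 and 950 with sg2, against 2 in the control. The pooled ratio was 273 (95% counting interval 75.5 to 2260.3; edgeR adjusted p = 0.000856). Unlike Lox, Loxl1 and Loxl3, it was higher with sg2 than with sg1, with an sg1 to sg2 ratio of 0.303 (0.263 to 0.348). Loxl4 had 8 counts with sg1 and 108 with sg2, against 34 in the control, so the guides lay on opposite sides of it (log2 -1.91 and 1.40; edgeR adjusted p = 0.893). Per length, Lox led the family with sg1 (11.6 of 23.0 RPKM) and Loxl2 with sg2 (3.55 of 10.5 RPKM).

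The guides were then set side by side, since each was sequenced once. Of the 13 genes that rose, 7 were higher with sg1 and 6 with sg2, and 7 differed at least 2-fold between the guides: Lox, Loxl1, Loxl3, Adamts2 and Mmp13 towards sg1, and Loxl2 and Adamts9 towards sg2. Among the 38 tested genes, 12 were at least 2-fold higher with sg1 and 5 with sg2, which is 44.7%, against 18.6% of all 15936 genes tested. The median absolute log2 difference between the guides was 0.95 over the 38 genes and 0.45 over all. The 38 genes and all genes were not matched for expression level. Some of the 38 had few counts, such as Mmp25 with 0 and 15 and Adamts19 with 16 and 4 for sg1 and sg2. With 1 library per guide, a difference between guides and a difference between libraries cannot be told apart.

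**Figure D4:**
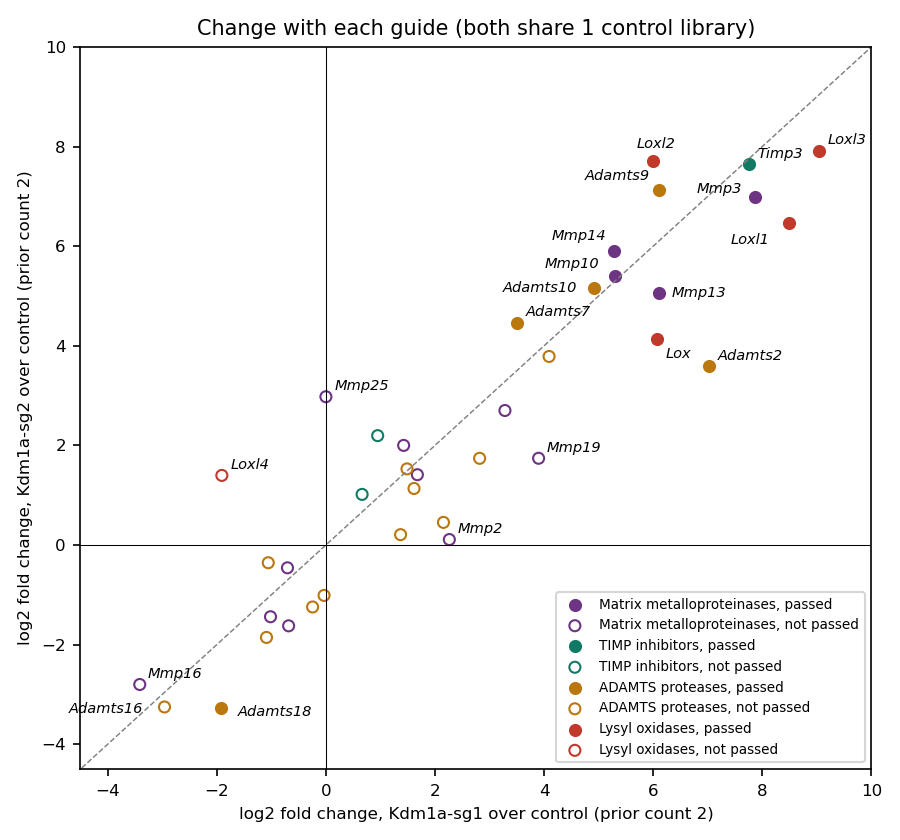
Log2 fold change over the control with Kdm1a-sg1 (x axis) and with Kdm1a-sg2 (y axis) for the 38 tested genes, coloured by family, filled where the edgeR test was passed; the dashed line marks equal values, and both axes share 1 control library. Loxl4 lies at -1.91 and 1.40, and Adamts2 at 7.03 and 3.59.

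Regulators and partners of these enzymes were read from a list of 33 genes, of which 27 were tested, 10 rose and 0 fell. Over all genes tested, 6.33% were higher and 1.70% lower. At an unadjusted edgeR p under 0.05 in either direction there were 15, against 2912 of all 15936 genes. The median log2 fold change was 1.38, against 0.06 over all genes. The list was chosen with earlier results of these data known, so these values are a description. Genes absent from the control, such as Fbln5 and Pcolce2, could enter the test only through the guides. Fbln5, fibulin-5, which brings LOXL1 to elastic fibres, had 1162 counts with sg1 and 2299 with sg2, against 0 in the control (at least 515-fold; edgeR adjusted p = 4.30e-05). Pcolce and Pcolce2 enhance the cleavage of procollagen carboxy-terminal propeptides. Pcolce rose 265-fold (3348 and 3665 counts, against 12; edgeR adjusted p = 3.03e-05), and Pcolce2 had 464 and 752, against 0 (at least 182-fold; adjusted p = 0.000132). Plaur, the urokinase receptor, had 863 and 2219, against 7, and rose 195-fold (edgeR adjusted p = 0.000175). Bmp1, the proteinase that cleaves those propeptides and also activates pro-LOX, had 83.5 and 95.7 CPM, against 29.8 CPM, and missed the threshold (log2 1.59, edgeR adjusted p = 0.0532). Furin, which activates pro-MMP14, and Reck, a membrane-anchored MMP inhibitor, did not pass (log2 0.48 and 0.51; edgeR adjusted p = 0.67 and 0.895).

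Of a list of 21 matrix genes that are substrates of such enzymes, all tested, 11 rose and 2 fell (median log2 3.09, or 2.75 with genes absent from the control at the limit of 3 counts). Over all genes tested, 6.33% were higher and 1.70% lower. This list, too, was chosen with earlier results of these data known. Of the 21 genes, 4 had 0 counts in the control, 3 of them among the 11 that rose. These could enter the test only through the guides. Col5a2, a fibrillar collagen chain, had 1596 and 4007 counts, against 0 in the control (at least 828-fold; edgeR adjusted p = 4.30e-05), Bcan, brevican, 252 and 778, against 0 (at least 152-fold; adjusted p = 0.00043), and Acan, aggrecan, 173 and 11, against 0 (at least 29.3-fold; adjusted p = 0.0471). Col1a1 had 10119 and 2752 counts, against 4, and rose 1510.3-fold (edgeR adjusted p = 0.000136). The 2 that fell, Ncan, the neural proteoglycan neurocan, and Reln, which ADAMTS proteases cleave in brain, were 4.25-fold and 7.92-fold lower (edgeR adjusted p = 0.0387 and 0.0445). Both were on the list, but they fall outside the rule for named genes and are named because they fell. Of 11 related Adam genes, Adam15 rose 5.15-fold (edgeR adjusted p = 0.00708) and 10 did not pass.

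Markers of cell types known to make these proteins moved with some of them. Of all genes tested, 6.33% were higher and 1.70% lower. Of 10 fibroblast markers, 9 were tested and 6 rose, with a summed level of 414 CPM with sg1 and 186 with sg2, against 8.37 in the control. Col1a1 alone held 224 CPM with sg1 and 54.4 CPM with sg2, against 0.0922 CPM in the control. Lum had 0 counts in all 3 libraries and Col1a2 15, 6 and 0. Col1a1, Col1a2, Col3a1 and Dcn stand in both this list and that of substrates. Of 6 smooth muscle markers, 1 of 5 tested rose, with sums of 159 and 398 CPM, against 3.83. That gene, Acta2, made up nearly all of the sums with the guides, with 150.0 CPM with sg1 and 373 CPM with sg2, against 0 in the control, and Des had 4 and 17 counts, against 23 (edgeR adjusted p = 0.737). Of 6 endothelial markers, 1 of 4 tested rose, with sums of 273 and 84.8 CPM, against 190.4. Kdr was the one that rose, and most of the sums came from Vwf, with 262 CPM with sg1 and 60.0 CPM with sg2, against 189.8 CPM in the control. Of 8 alveolar and club cell markers 2 rose and 1 fell (sums of 64.0 and 40.7 CPM, against 7.01), and of 4 mesothelial markers 1 was tested and did not pass (edgeR adjusted p = 0.368; sums of 0.642 and 0.791 CPM, against 1.94). The part of these cell types in the results was not tested, and in bulk RNA more cells of a type and more RNA per cell cannot be told apart. Of 12 macrophage and neutrophil markers, Cd68 was the 1 tested and did not pass (edgeR adjusted p = 0.636), with sums of 9.61 and 6.45 CPM, against 4.63. The pan-leukocyte gene Ptprc had 0, 1 and 0 counts with sg1, with sg2 and in the control, and Adgre1, Mpo, Ly6g and S100a9 had 0 in all 3, as did Mmp9. The neuroendocrine list, with 1 of 10 genes higher and 2 lower, summed to 2935 CPM with sg1 and 2076 with sg2, against 4260 in the control.

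The authors also deposited lists of higher and lower genes. In the authors' deposited table of higher genes, which holds 1833 genes at no less than 1.5 times the control RPKM where the control is above 0, 15 of the 51 genes appear. They include 10 of the 13 that rose here, beside Timp1, Timp2, Mmp11, Mmp17 and Adamts1, which did not pass. The lowest guide RPKM in that table is 1.005. Mmp10, Adamts2 and Adamts7 rose here but are absent from it. Their lower guide values were 0.971 RPKM (sg1), 0.124 RPKM (sg2) and 0.477 RPKM (sg1). In the authors' deposited table of lower genes, 5 of the 51 appear, Mmp15, Mmp23, Mmp24, Adamts5 and Adamts18. Its 2154 genes reach up to 0.750 of the control RPKM in both guides. Out of 24523 genes in the whole gene table, 1833 are thus listed as higher and 2154 as lower. The 15 and 5 of the 51 genes were not tested against these shares.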

How the data were processed

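RNA was extracted with Trizol and made into NEBNext Ultra libraries, per the labels' protocols. Raw read counts per gene were deposited by the authors; Bowtie2 2.2.3, TopHat2 2.0.12, HTSeq 0.6.1 and mm10 are named in the submitters' processing notes, with strand and multi-mapping settings not given in the sources used here. The authors deposited RPKM beside the counts, per the file headers, and lists of higher and lower genes, with the fold of RPKM over the control deposited by the authors as a ratio. Columns were mapped to samples by title.

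Counts were tested as deposited with edgeR 4.0.16 (R 4.3.3): TMM factors, filterByExpr, quasi-likelihood F test of knock-out (n = 2) over control (n = 1), Benjamini-Hochberg adjustment over 15936 genes, with 8587 not tested, 1 residual and 11.5 prior degrees of freedom, and a common coefficient of variation of 0.387. The SE is the log2 fold change over the square root of F. CPM use totals times TMM factors; log2 fold changes per guide use a prior count of 2. Folds are ratios of mean CPM; with 0 control counts they are lower bounds against 3 counts, and with 1 to 3 control counts the pooled ratio has a 95% exact (Clopper-Pearson) interval. Intervals and limits cover counting error only. Nothing in the labels places the libraries in replicate cultures, so p-values measure the spread between these samples.

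Alternatives were DESeq2 1.42.0 size factors and Wald test, upper-quartile factors, no filter, a mean count of at least 50, limma 3.58.1 voom, limma-trend on log2(RPKM + 1) and log2(RPKM + 0.1), removal of a gene length trend by loess, and each guide alone. The scripts were tested on simulated data. Named genes were those that passed, those at 1 CPM or more in a library, and per list the 2 to 4 largest changes that passed, with Reck, Furin and Bmp1. Members and lists were chosen with earlier results of these data known. Positions and promoters are RefSeq GRCm38.p6, matched by Entrez identifier. Some values of genes outside the set are not reported here.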

Additional observations from a re-analysis of the deposited data

How the results depend on the processing

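Of the 51 genes, 13 rose and 1 fell, with 38 tested. With no filter 47 were tested, with a mean count of at least 50 31, and in each other fit 38. Of all genes tested, 8.03% passed in the main fit, 10.1% with no filter and 7.23% with a mean count of at least 50. The number that rose was 13 with DESeq2 size factors and with upper-quartile factors, 15 with no filter, 12 with a mean count of at least 50, 14 with the DESeq2 Wald test, 11 with limma-trend on log2(RPKM + 0.1) and 11 with the length trend removed, but 5 with limma-voom and 1 (Timp3) with limma-trend on log2(RPKM + 1). The number that fell was 0 with upper-quartile factors, a mean count of at least 50, limma-voom, both limma-trend fits and the length trend removed. Over all genes, 1279 calls became 711 with limma-voom, 31 with limma-trend on log2(RPKM + 1), 679 on log2(RPKM + 0.1) and 841 with the length trend removed; the cause was not tested. With each guide alone, 1 library against 1 with no test, 24 to 25 tested genes were at least 2-fold higher and 7 to 8 at least 2-fold lower, against 3991 to 5713 of all genes in either direction. The split of calls over all genes moved from 78.8% higher to 89.2% on log2(RPKM + 0.1). Loxl4 changed sign with limma-voom (log2 -0.26) and with sg1 alone (-1.91, against 1.40 with sg2 alone). Gains of a call were Mmp19 and Adamts14 with no filter (adjusted p = 0.0255 and 0.0306) and Mmp17 with the DESeq2 Wald test (0.0455). The median of 1.97 over the 38 tested genes is of the edgeR fit; the mean of the medians for each guide alone was 1.83 with a prior count of 2, 1.90 with 0.5 and 1.42 with 10. Lower bounds of folds against 1 count in place of 3 are 3 times as large. No paired analysis was possible because the control has 1 library. Genes below about 1 CPM are limited by depth.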

Other observations

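Some genes related to this set had values outside the comparisons above. Serpinh1, which encodes the collagen chaperone HSP47, was listed at 0 counts with sg1, 0 with sg2 and 2 in the control, although Col1a1 and Col5a2 were abundant with both guides. Serpinh1 was picked with its values in view. Birc3, an inhibitor of apoptosis encoded beside the Mmp cluster, had 4 counts with sg1 and 120 with sg2, against 4 in the control, and did not pass the edgeR test (adjusted p = 0.32). Casp4 and Casp12, inflammatory caspase genes on the other side of the cluster, had 291 and 305 and 492 and 480 counts with sg1 and sg2, against 0 in the control for both, and passed (edgeR adjusted p = 0.000498 and 0.000167). The neighbours were likewise picked with their values in view.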
